A study of Mus musculus with 6 samples.

Results

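Vitamin A signaling in the arcuate nucleus (ARC) was followed through 9 genes, chosen by symbol from the 24015 genes counted in each sample. They encode the cytosolic retinoic acid binding proteins *Crabp1* and *Crabp2*, the blood carrier *Rbp4*, the synthesis enzymes *Aldh1a1* and *Aldh1a2*, the breakdown enzyme *Cyp26b1* and the nuclear receptors *Rara*, *Rarb* and *Rxrg*. *Crabp1* was included because it was lower in the mutants, so its genotype difference is given as a description without a test. The other 8 were chosen by their role, but with earlier results of these data known. RNA came from manually microdissected ARC of adult females on a mixed background. The sample labels give it as CD-1, 129P2 and C57BL/6, and the paper names CD-1 and 129P2 for this line. The 3 control females were *Esr1*fl/fl and the 3 mutant females were *Esr1*fl/fl;*Nkx2-1*-Cre. Both genotypes thus carried floxed *Esr1* (estrogen receptor alpha, ERα), and the mutants alone carried Cre, which is expressed from *Nkx2-1* and therefore acts in cells of the medial basal hypothalamus that have expressed this gene, not in *Kiss1* or dopamine neurons alone. No group carried Cre without floxed *Esr1*, so effects of Cre and of ERα loss cannot be told apart.

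Retinol travels in blood bound to RBP4 and is oxidized inside cells, first to retinal and then by ALDH1A enzymes to retinoic acid. CRABP proteins hold retinoic acid in the cytosol, CYP26 enzymes degrade it, and heterodimers of the receptors RAR and RXR bind it at paired half-sites in DNA. In the mediobasal hypothalamus, retinoic acid synthesis is best known from tanycytes, the glia that line the floor of the ventricle of the hypothalamus, where it varies with day length in seasonal rodents.

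Between 11792440 and 17877137 reads per sample were counted on genes. Levels are given as CPM, a gene's counts relative to the library total, after TMM normalization, and 3 counts, taken as the detection floor, corresponded to between 0.175 and 0.248 CPM. *Esr1*, the targeted gene, read 64.5, 57.5 and 48.5 CPM in the controls, given here and throughout in the order of replicates 1, 2 and 3, against 11.8, 9.55 and 7.06 CPM for the mutants. All 10 ARC neuron markers were present in every sample, and their summed level was between 1103 and 1164 CPM in controls and between 1270 and 1830 CPM in mutants. Of these markers, *Cartpt*, *Tac2* and *Pdyn* were higher in every mutant, and the others overlapped between genotypes. *Tac2* and *Pdyn* mark the kisspeptin (KNDy) neurons of the ARC, whose markers the paper describes as repressed by estrogen. Control replicate 2 stood apart, with a summed level of 5.47 CPM for 6 markers of the pars tuberalis and pituitary against 462 to 745 CPM in the other 5 samples. It also had the lowest sums for tanycyte (985 CPM), choroid plexus (90.2 CPM) and meningeal fibroblast (191 CPM) markers. The choroid plexus sum was low mainly through *Ttr*, at 16.8 CPM against 44.9 to 391 CPM in the other samples. The meningeal markers were divided. *Dcn* (33.4 CPM) and *Lum* (5.06 CPM) were lowest in this sample, but *Slc6a13*, *Slc22a6* and *Igf2* were above the other controls. Markers of the ventromedial nucleus were also present. Summed over 5 genes, they were at 73.2, 155.8 and 111.3 CPM in controls and at 72.0, 177.5 and 201 CPM in mutants. In such bulk samples, fewer cells of a type and less RNA per cell cannot be told apart.

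The sequences before the transcription start are shown for the 3 genes that were lower in every mutant and for *Rarb*, whose start region carries a paired receptor half-site. Each is the 250 bases before a RefSeq start (RefSeq sequence of GRCm38.p6), placed by exact match on NCBIM37, the assembly also called mm9 that the sample labels name, and written 5′ to 3′. Capitals mark the half-site repeat in *Rarb*, the half-site AGGTCA in *Rxrg*, and GC boxes (GGGCGG on either strand) with 1 TATA box (TATAAA) in the others.
*Crabp1*, chr9:54612305-54612554, plus strand: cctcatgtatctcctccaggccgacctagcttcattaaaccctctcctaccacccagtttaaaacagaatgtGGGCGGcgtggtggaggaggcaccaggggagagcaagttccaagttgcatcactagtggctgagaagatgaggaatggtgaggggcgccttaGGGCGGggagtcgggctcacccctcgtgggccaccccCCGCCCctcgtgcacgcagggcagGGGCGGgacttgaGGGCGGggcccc
*Cyp26b1*, chr6:84543805-84544054, minus strand: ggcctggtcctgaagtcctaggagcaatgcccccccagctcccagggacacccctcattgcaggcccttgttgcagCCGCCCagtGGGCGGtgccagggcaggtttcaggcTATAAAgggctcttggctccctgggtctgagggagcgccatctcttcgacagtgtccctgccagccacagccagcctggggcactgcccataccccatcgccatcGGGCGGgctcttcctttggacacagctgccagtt
*Rxrg*, internal start, chr1:169548146-169548395, plus strand: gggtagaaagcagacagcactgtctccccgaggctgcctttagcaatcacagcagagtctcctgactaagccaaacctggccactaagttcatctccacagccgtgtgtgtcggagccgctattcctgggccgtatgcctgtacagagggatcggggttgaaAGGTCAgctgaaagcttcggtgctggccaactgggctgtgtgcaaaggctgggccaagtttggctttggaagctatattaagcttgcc
*Rarb*, chr14:17407991-17408240, minus strand: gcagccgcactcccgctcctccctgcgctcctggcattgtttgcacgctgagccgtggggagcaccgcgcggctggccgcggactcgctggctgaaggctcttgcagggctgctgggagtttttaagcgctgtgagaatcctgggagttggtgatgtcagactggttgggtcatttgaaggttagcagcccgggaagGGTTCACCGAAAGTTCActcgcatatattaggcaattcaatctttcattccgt

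*Rarb* held a direct repeat of the half-site with a spacer of 5 bases, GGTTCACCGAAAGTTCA, at positions -53 to -37 before the start. The half-site was searched with A or G as its first base and G or T between the following G and TCA, on both strands, so that other spellings of the repeat also counted. Of 32851 start regions of the same length, 0.0883% held this repeat. Among the 14 start regions of the 8 members that have one, 1 held it, that of *Rarb*. No member held the repeat with a spacer of 1 or 2 bases, found in 0.164% and 0.174% of all start regions, or the palindromic consensus estrogen response element, found in 0.0639%. The single half-site AGGTCA, which lies in 14% of start regions and can be part of the longer motifs, was found at the internal start of *Rxrg* and not at its start near the annotated beginning of the gene. The GC box, added to the search after the sequences had been seen, lies in 32.7% of start regions. It occurred in 6 of the 14 start regions of the members, some of which overlap at *Rara*, and in 4 of the 8 members. These were *Crabp1* (5 times), *Cyp26b1* (3 times), *Rara* (up to 4 times at a start) and *Rbp4* (2 times at 1 of its starts), so the GC box was not particular to the lower genes. The TATA box lies in 12.4% of start regions and occurred at *Cyp26b1* (-139 to -134) and at 1 start of *Rbp4* (-28 to -23). Neither the TATA box nor the single half-site was among the motifs planned beforehand. The regions of *Crabp1* and *Cyp26b1* lie outside the annotated genes, and those of *Rarb* and of the internal start of *Rxrg* lie in introns of longer transcripts. These matches describe letters, and binding was not measured.

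Per length of annotated exon, *Aldh1a1* and *Crabp1* were the most abundant of the 9 genes in control ARC, at 72.6 ± 26.4 and 52.8 ± 4.25 CPM per kb (SD, n = 3), and their sample values overlapped. *Rbp4* followed at 8.75 ± 1.91 CPM per kb, below every control value of *Crabp1*. *Aldh1a2* and *Rxrg* were at 6.99 ± 2.72 and 6.80 ± 0.718 CPM per kb, with values that overlapped each other and those of *Rbp4*. *Rara* (5.73 ± 0.0253) and *Cyp26b1* (5.37 ± 0.825 CPM per kb) overlapped as well. *Rarb* was lower at 3.54 ± 0.859 CPM per kb and *Crabp2* lowest at 1.31 ± 0.308 CPM per kb. In mutants, *Aldh1a1* was at 117 ± 19.1 and *Crabp1* at 18.5 ± 6.07 CPM per kb, so these leading genes, which overlapped in controls, no longer did. As *Crabp1* was chosen for its lower mutant level, its part in this separation is no separate result.

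**Figure D1:**
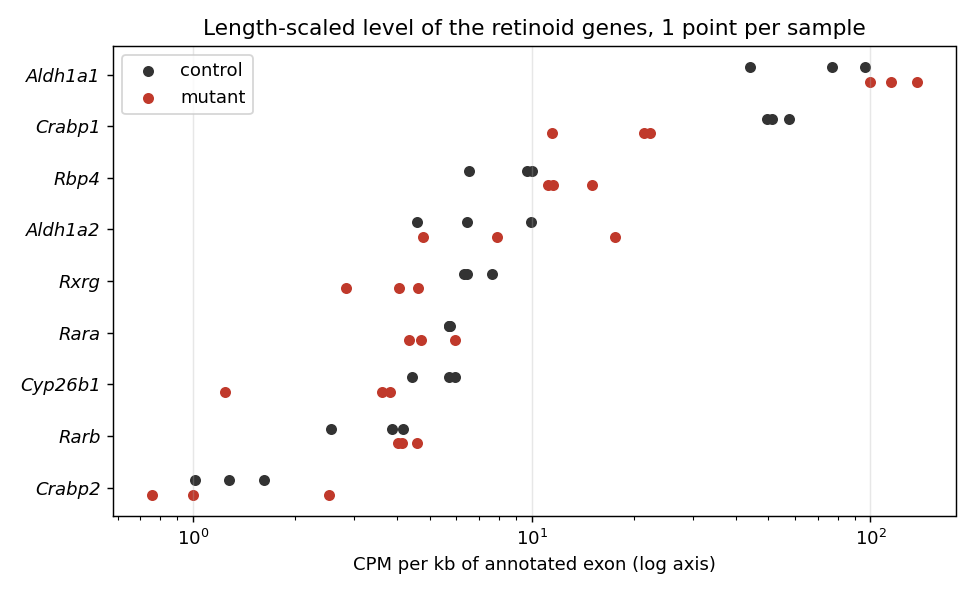
Level of the 9 genes in each sample, as CPM per kb of annotated exon on a log axis, with 1 point per control (black) and mutant (red) sample. *Aldh1a1* and *Crabp1* overlap in controls, at 44.2 to 96.5 and 49.5 to 57.6 CPM per kb, and lie apart in mutants. *Crabp1* was chosen for its lower mutant level.

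*Crabp1* (chromosome 9, 54612555 to 54620917 on the plus strand of NCBIM37) read 41.1, 39.7 and 46.2 CPM across the controls against 17.2, 17.97 and 9.19 CPM across the mutants. Every mutant lay below every control, and mutant replicate 3 was the lowest. The level averaged 42.3 ± 3.41 CPM over controls and 14.8 ± 4.87 CPM over mutants (SD, n = 3), 0.350 times the control level, and the log2 fold change was -1.52 (standard error 0.23). The counts behind these values ran from 138 to 683 per sample. *Crabp2*, the paralog known for passing retinoic acid to RAR, had the lowest level of the 9 and read 1.34, 1.69 and 2.15 CPM across controls against 1.32, 3.33 and 0.999 CPM across mutants. Mutant replicate 2 was highest and the groups overlapped (log2 fold change 0.14, 95% interval -0.88 to 1.17, adjusted *p* = 0.963, edgeR's quasi-likelihood test). Its direction rested on that sample, without which the log2 fold change was -0.58.

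With the same test, 0 of the 8 members other than *Crabp1* had an adjusted *p* under 0.05, against 0.118% of the 15236 genes tested, split into 0.0591% with a higher and 0.0591% with a lower mutant level. Before adjustment 2 of 8 (*Rxrg* and *Rbp4*) had a *p* under 0.05, against 8.85% of all genes, and in both the genotypes did not overlap, against 7.63%. DESeq2 called 1, *Rxrg*, against 1.27% of genes, and limma voom, which called 0.0919% of genes, and a fit with the replicate number as a block, which called 0.807%, called 0. The genotypes did not overlap for 4 of the 8, against 15.8% of all genes, with *Rbp4* and *Aldh1a1* higher and *Rxrg* and *Cyp26b1* lower in the mutants. The median log2 fold change of the 8 was 0.21, beside 0.0036 for all genes tested. Because the 8 were chosen with earlier results of these data known, these shares describe them and do not test them as a set. For 1 gene, an exact two-sided permutation test of 3 females against 3 cannot give a *p* under 0.1.

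**Figure D2:**
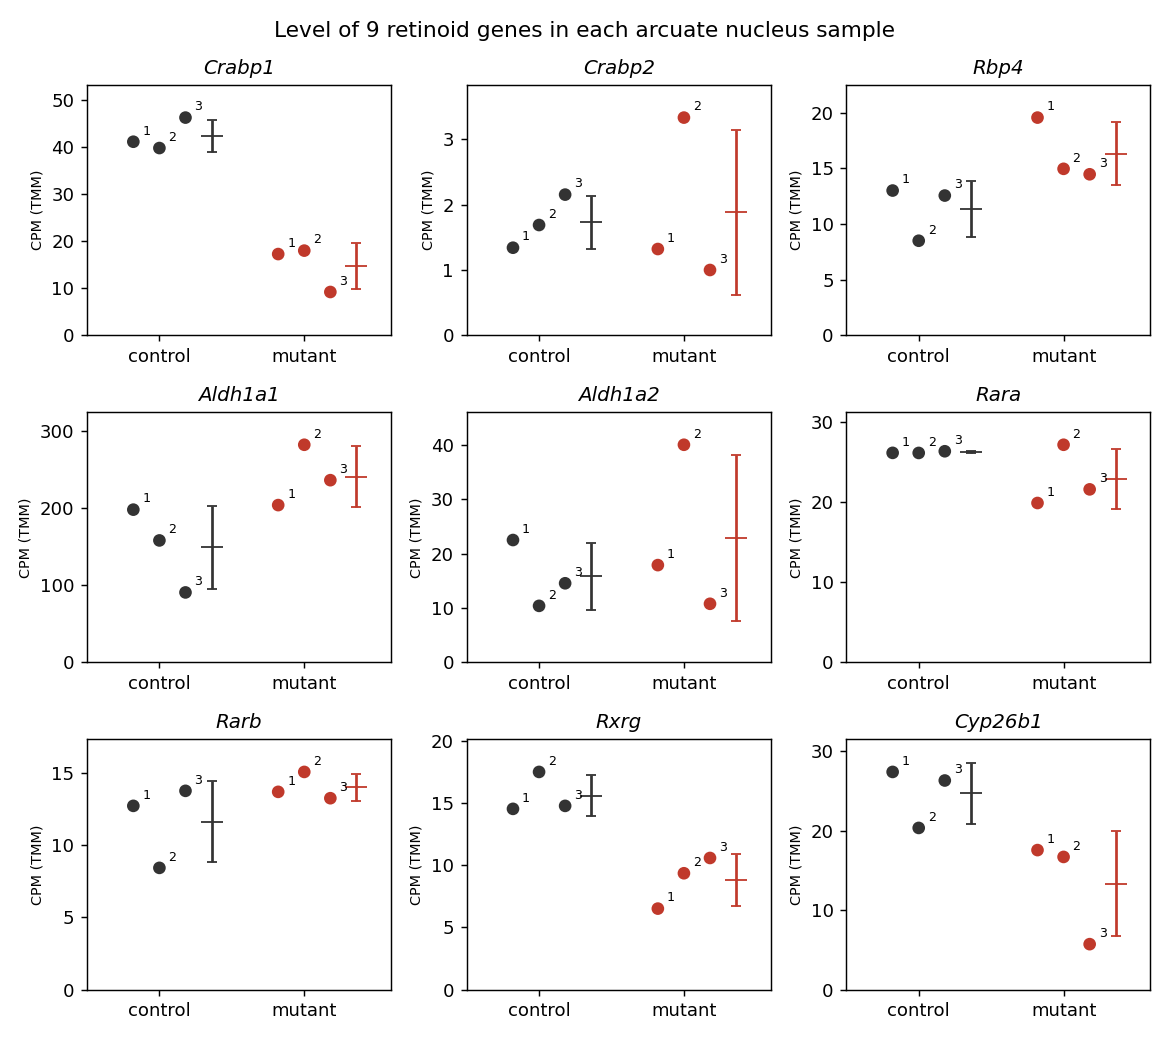
CPM of each gene in the 3 control (black) and 3 mutant (red) samples, numbered by replicate, with the group mean and SD as a bar at the right of each group. *Crabp1*, *Rxrg* and *Cyp26b1* lie lower in every mutant, and *Rbp4* and *Aldh1a1* higher.

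*Rbp4* (chromosome 19, 38191110 to 38199811 on the minus strand), best known as the liver-derived carrier of retinol in plasma, was at 13.0, 8.49 and 12.6 CPM in controls and at 19.6, 15.0 and 14.5 CPM in mutants. All mutants were above all controls, with control replicate 2 the lowest. The log2 fold change was 0.52 (95% interval 0.096 to 0.95, adjusted *p* = 0.442, edgeR). Without control replicate 2, the sample nearly free of pars tuberalis markers, it was 0.35.

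*Aldh1a1* (chromosome 19, 20676451 to 20717952 on the plus strand) was at 198, 158 and 90.8 CPM in controls and at 204, 282 and 236 CPM in mutants. The lowest mutant was only just above the highest control, and control replicate 3 was the lowest sample. The level averaged 149 ± 54.2 CPM over controls and 241 ± 39.3 CPM over mutants (SD, n = 3), and the difference did not pass the test (log2 fold change 0.69, 95% interval -0.067 to 1.45, adjusted *p* = 0.596, edgeR). Control replicate 3 also had the lowest summed level of 8 oligodendrocyte markers, 630 CPM against 752 and 1172 CPM in the other controls and 1518 to 1677 CPM in mutants. It was lowest for the summed ARC neuron markers as well, at 1103 CPM, whereas the tanycyte sum was lowest in control replicate 2, at 985 CPM. The part of these cells in the *Aldh1a1* values was not tested. Without control replicate 3 the log2 fold change of *Aldh1a1* was 0.43.

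*Aldh1a2* (chromosome 9, 71063596 to 71144050 on the plus strand), the synthesis enzyme known from meninges and embryonic mesoderm, was at 22.5, 10.4 and 14.6 CPM in controls and at 17.9, 40.0 and 10.8 CPM in mutants. The groups overlapped, and the single high value was that of mutant replicate 2 (log2 fold change 0.54, 95% interval -0.95 to 2.03, adjusted *p* = 0.855, edgeR). Without that sample the log2 fold change was -0.15, and leaving out other samples gave values of up to 0.88. Mutant replicate 2 also had the highest summed level of 9 meningeal fibroblast markers, 542 CPM against 191 to 387 CPM in the other samples. It was highest for 7 choroid plexus markers too, at 485 CPM against 90.2 to 342 CPM, but 391 CPM of this was *Ttr*. *Folr1*, *Aqp1* and *Kcnj13* were also highest in this sample, whereas *Kl*, *Clic6* and *Otx2* were highest in others. *Crabp2*, *Aldh1a1*, *Rara* and *Rarb* were highest in this sample as well. The share of meningeal and choroid plexus cells in the *Aldh1a2* and *Crabp2* values was not tested.

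*Cyp26b1* (chromosome 6, 84521938 to 84543740 on the minus strand), which clears retinoic acid, was at 27.4, 20.4 and 26.3 CPM in controls and at 17.6, 16.7 and 5.73 CPM in mutants. Every mutant lay below every control, and mutant replicate 3 was the lowest. The log2 fold change was -0.89 (95% interval -1.89 to 0.10, adjusted *p* = 0.597, edgeR), and it was -0.53 without mutant replicate 3. This was also the lowest sample for *Crabp1*. Mutant replicate 3 had the highest summed ventromedial nucleus markers, 201 CPM against 72.0 and 177.5 CPM in mutant replicates 1 and 2. The part of these cells in the *Crabp1* and *Cyp26b1* values was not tested.

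*Rxrg* (chromosome 1, 169528515 to 169569754 on the plus strand), the RXR with the most restricted expression, was at 14.5, 17.5 and 14.8 CPM in controls and at 6.52, 9.36 and 10.6 CPM in mutants. The groups did not overlap, and the control mean of 15.6 ± 1.65 CPM compared with 8.82 ± 2.09 CPM in mutants (SD, n = 3). The log2 fold change was -0.82 (95% interval -1.23 to -0.40), with an adjusted *p* of 0.163 in edgeR's test and of 0.0209 in DESeq2. It stayed between -0.97 and -0.65 when each sample was left out. *Rxrg* is also expressed in oligodendrocytes, whose 8 markers each read higher in all mutants than in any control, and the part of these cells in the *Rxrg* values was not tested. *Rara* (chromosome 11, 98789132 to 98836256 on the plus strand) was at 26.1, 26.1 and 26.3 CPM in controls, the narrowest spread of the 9 genes, and at 19.9, 27.1 and 21.6 CPM in mutants, with overlapping groups (log2 fold change -0.19, 95% interval -0.48 to 0.095, adjusted *p* = 0.723, edgeR). The *Rara* difference was -0.34 on the log2 scale without mutant replicate 2 and -0.10 without mutant replicate 1. *Rarb* (chromosome 14, 17263356 to 17651381 on the minus strand), whose start region with the direct repeat is printed above and which retinoic acid is known to induce, was at 12.7, 8.44 and 13.8 CPM in controls and at 13.7, 15.1 and 13.3 CPM in mutants. Control replicate 2 was the low value and the groups overlapped (log2 fold change 0.27, 95% interval -0.14 to 0.69, adjusted *p* = 0.733, edgeR). Without it the log2 fold change was 0.081, and without control replicate 3 it was 0.41.

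The pathway around these genes was read from a list of 53 further genes of retinoid transport, metabolism and signaling, of which 39 passed the filter on low counts. None had an adjusted *p* under 0.05 with edgeR's test, against the 0.118% of all genes, and 9 of 39 had a *p* under 0.05 before adjustment, 6 higher and 3 lower in the mutants, against 4.84% and 4.01% of all genes. DESeq2 called 1, *Lrat*, and limma voom called 0. The genotypes did not overlap for 11 of the 39, 7 higher and 4 lower in the mutants, against 15.8% of all genes. By role these were 6 of 12 retinol and retinal interconversion enzymes, 3 of 6 coregulators, 1 of 4 storage genes and 1 of 6 retinoid-inducible genes. The 6 carriers and binding proteins, the 4 nuclear receptors and the 1 synthesis enzyme gave 0. The median log2 fold change of the 39 was 0.13. This list, too, was drawn up with earlier results of these data known. The 14 genes that did not pass the filter were at 0.825 CPM or less in every sample and included the breakdown enzymes *Cyp26a1* and *Cyp26c1*, so that *Cyp26b1* was the one *Cyp26* gene with enough reads to test.

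*Lrat*, the enzyme that esterifies retinol for storage, differed most among the genes of the list that pass the naming rule. It was at 168, 172 and 129 CPM in controls and at 210, 335 and 413 CPM in mutants. All mutants were above all controls, although they spread widely (log2 fold change 1.03, standard error 0.26, with an adjusted *p* of 0.323 by edgeR and of 9.74e-05 by DESeq2). Without mutant replicate 1, the lowest mutant, edgeR's adjusted *p* was 0.0220 and the log2 fold change 1.26. The summed ventromedial nucleus markers ran in the same order as *Lrat* across the mutants, but not across the controls. The part of these cells in the *Lrat* values was not tested.

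Of 12 tested enzymes that interconvert retinol and retinal, 6 were higher in every mutant than in every control and 0 lower, against 7.88% of all genes in each direction. Among them, *Dhrs4*, a retinal reductase, was at 6.50, 6.52 and 5.88 CPM in controls and at 9.16, 11.1 and 8.93 CPM in mutants (log2 fold change 0.63, standard error 0.17, adjusted *p* = 0.252, edgeR). *Dhrs3*, which returns retinal to retinol, was at 20.9, 20.4 and 22.3 CPM in controls and at 32.4, 26.8 and 24.7 CPM in mutants (0.40, standard error 0.12, adjusted *p* = 0.352, edgeR). *Rdh10*, the main embryonic retinol dehydrogenase, and *Adh5*, a broadly expressed alcohol dehydrogenase, had log2 fold changes of 0.32 and 0.26 with adjusted *p* of 0.524 and 0.384 (edgeR), and that of *Rdh10* was 0.21 without mutant replicate 3. *Rdh14*, the most abundant of the 12 per length at 18.7 CPM per kb over all samples, had one of 0.21 (adjusted *p* = 0.603, edgeR). These enzymes act in opposite directions on the same substrates, and flux was not measured. All 8 oligodendrocyte markers, 3 of 10 ARC neuron markers and 2 of 5 microglia markers were also above all controls in each mutant. So were 1 of 8 tanycyte and 1 of 7 choroid plexus markers, and 1 of 5 ventromedial nucleus markers was below. The ARC neuron markers above all controls were *Cartpt*, *Tac2* and *Pdyn*, of which *Tac2* and *Pdyn* are the KNDy markers named above. For such genes, cell content and regulation by estrogen cannot be told apart here. The part of these cell types in the enzyme values was not tested.

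Of 6 coregulators, 3 were below all controls in each mutant and 0 above, against the same 7.88% in each direction. *Ncoa1*, a coactivator shared by retinoid and estrogen receptors, was at 314, 360 and 312 CPM in controls and at 270, 270 and 278 CPM in mutants (log2 fold change -0.27, standard error 0.083, adjusted *p* = 0.341, edgeR). *Ncor1*, a corepressor of unliganded RAR and after *Ncoa1* the most abundant of the 6 per length, averaged 383 ± 22.3 CPM over controls and 374 ± 8.94 CPM over mutants (SD, n = 3; log2 fold change -0.032, adjusted *p* = 0.944, edgeR).

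Among the receptors on the list, *Rxra*, the leading RXR at 13.2 CPM per kb over all samples, had a log2 fold change of 0.013 (95% interval -0.24 to 0.27, adjusted *p* = 0.990, edgeR), and that of *Ppard*, a partner of RXR, was 0.14 (adjusted *p* = 0.847, edgeR). Of the genes known to be induced by retinoic acid, *Ret*, the receptor for GDNF, was at 25.7, 35.8 and 25.4 CPM in controls and at 20.0, 19.9 and 22.1 CPM in mutants. Its groups did not overlap (log2 fold change -0.49, standard error 0.15, adjusted *p* = 0.323, edgeR), and the log2 fold change was -0.31 without control replicate 2, the highest sample. *Rarres2* overlapped between genotypes (0.34, adjusted *p* = 0.851, edgeR).

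In the group of carriers and uptake genes, *Ttr*, the plasma partner of RBP4 and a choroid plexus product, ran from 16.8 CPM in control replicate 2 to 391 CPM in mutant replicate 2. Its log2 fold change of 0.13 had a standard error of 1.33 (adjusted *p* = 0.993, edgeR). *Stra6*, the RBP4 receptor, averaged 24.7 ± 4.70 CPM over controls and 26.3 ± 8.52 CPM over mutants (SD, n = 3; log2 fold change 0.092, adjusted *p* = 0.951, edgeR). *Dgat1*, which can also esterify retinol, and *Aldh1a3*, the remaining tested synthesis enzyme, had log2 fold changes of -0.090 and 0.54 (adjusted *p* = 0.938 and 0.866, edgeR).

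**Figure D3:**
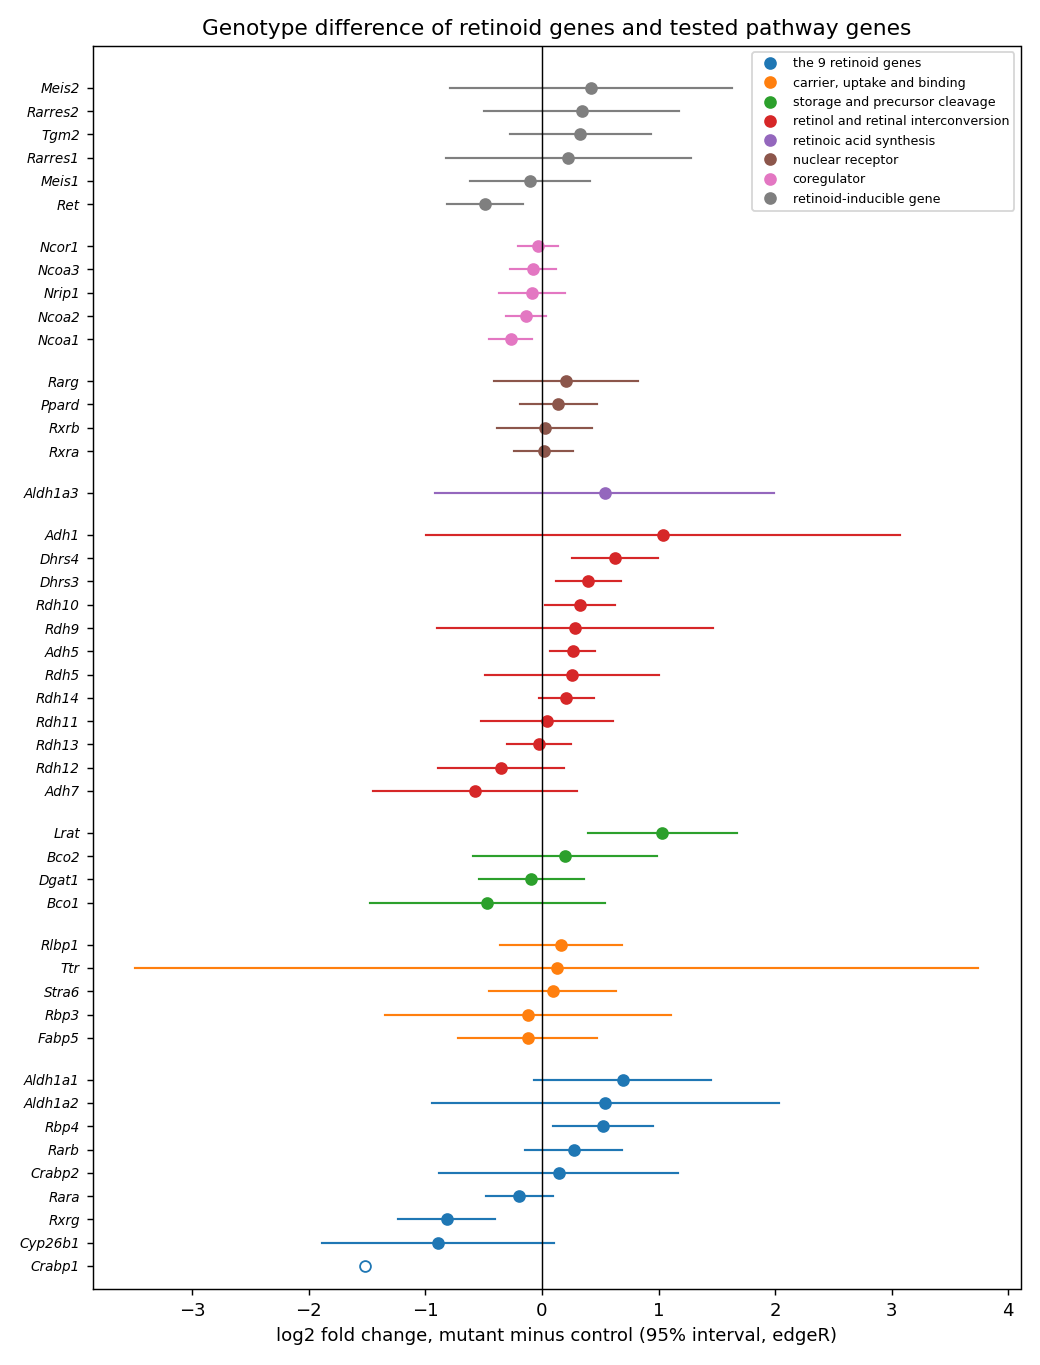
Log2 fold change, mutant minus control, of the 9 genes (blue) and of tested genes of the pathway list by role, with 95% intervals from edgeR. *Crabp1* is an open point without an interval because it was chosen for this difference, and *Ttr* has the widest interval.

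Among pairs of the 9 genes, *Rbp4* and *Rarb* were closest across samples, with a difference of 0.20 in the measure described next. The 7 members with a range of at least 1 on the log2 scale over the 6 samples were compared with all tested genes at a mean of 5 CPM or more, by the root mean square (RMS) difference between log2 CPM values after each gene was centered on its mean over the 6 samples. The comparison is a description and includes the genotype difference. Because *Crabp1* was chosen for its fall in the mutants, the genes nearest to it were bound to be lower in the mutants too. Of 11603 candidates, the genes nearest to *Crabp1* were *Nr4a2* (RMS difference 0.24), *Vgll3* (0.25), *Nhlh2* (0.31), *Tmem178* (0.35) and the member *Cyp26b1* (0.36). *Nr4a2*, a nuclear receptor of dopamine neurons, was at 32.2, 29.6 and 23.7 CPM in controls and at 11.8, 14.4 and 7.99 CPM in mutants, again lowest in mutant replicate 3. *Cyp26b1* had *Vgll3*, *Ccsap*, *Leprel1*, *Crabp1* and *Tmem178* as its nearest genes, between 0.26 and 0.36.

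*Rxrg* had a different neighborhood, in which mutant replicate 1 was lowest. Its nearest genes were *Tmem28* (RMS difference 0.10), *Pgr* (0.15), *Sytl4* (0.16), *Dlx2* (0.16) and *Adamts2* (0.18). *Pgr*, the progesterone receptor and a known estrogen-induced gene, was at 110, 123 and 117 CPM in controls and at 64.1, 80.9 and 80.3 CPM in mutants.

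**Figure D4:**
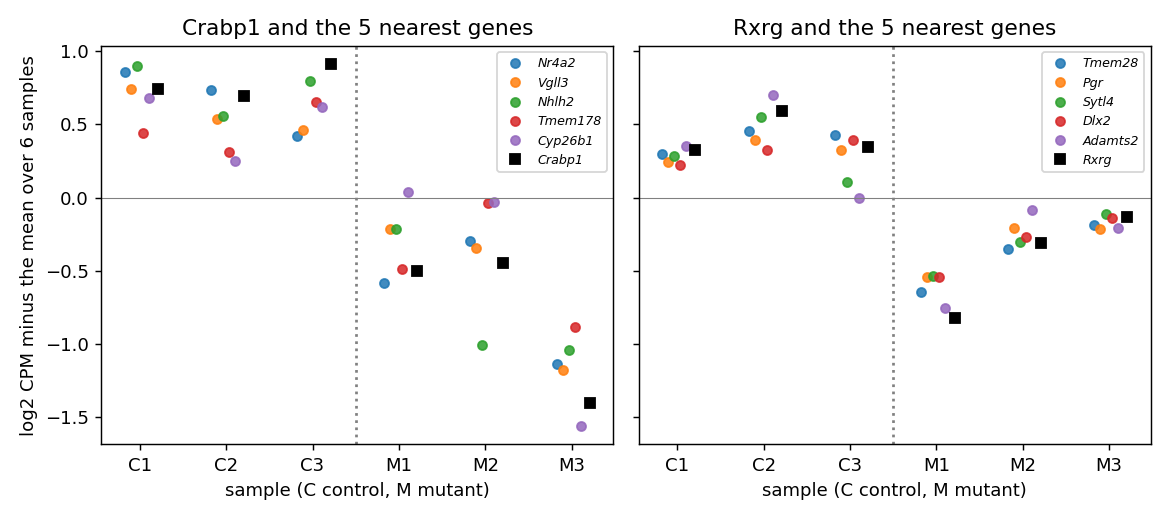
Log2 CPM minus the mean over 6 samples for *Crabp1* (left, black squares) and *Rxrg* (right, black squares) with the 5 nearest genes of each as colored points, for control (C) and mutant (M) replicates. The genes near *Crabp1* include *Nr4a2*, which is also lowest in mutant replicate 3, whereas *Rxrg* and its 5 nearest genes are lowest in mutant replicate 1.

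The nearest genes of the higher members differed again. *Rbp4* was closest to *B4galt1*, *Vegfa*, *Antxr1*, *Adamts1* and *Sat1*, with RMS differences of 0.068 to 0.089, and *Vegfa*, for example, was at 55.3, 34.4 and 46.0 CPM in controls and at 72.5, 56.3 and 55.4 CPM in mutants. *Aldh1a1* was closest to *Lims2* (0.082), *Fbln5* (0.15), *Cpm* (0.22), *Fam83h* (0.23) and *Gna14* (0.23). *Aldh1a2* was closest to *Zic1*, *Lama4*, *1500015O10Rik*, *Kcnj13* and *Galm* (0.31 to 0.37), all of them highest in mutant replicate 2, and *Kcnj13* is itself on the choroid plexus list. *Crabp2* was closest to *Bnc2*, *Adcy1*, *Tfcp2l1*, *Hpca* and *Hopx* (0.16 to 0.26), and its 15 to 53 counts per sample were the fewest of the 9 genes.

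The summed tanycyte markers, 8 genes, ran from 985 to 2183 CPM in controls and from 2069 to 2580 CPM in mutants, and control replicate 2 was lowest, as it was for *Rbp4*, *Rarb* and *Aldh1a2*. One of the 8, *Dio2*, was higher in every mutant. Summed microglia markers were at 132 to 147 CPM in controls and 170 to 181 CPM in mutants. The part of these cells in the values of the 9 genes was not tested. Astrocyte, ependymal and endothelial markers overlapped between genotypes, at 981 to 1316, 36.2 to 57.2 and 88.7 to 116 CPM over all samples.

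**Figure D5:**
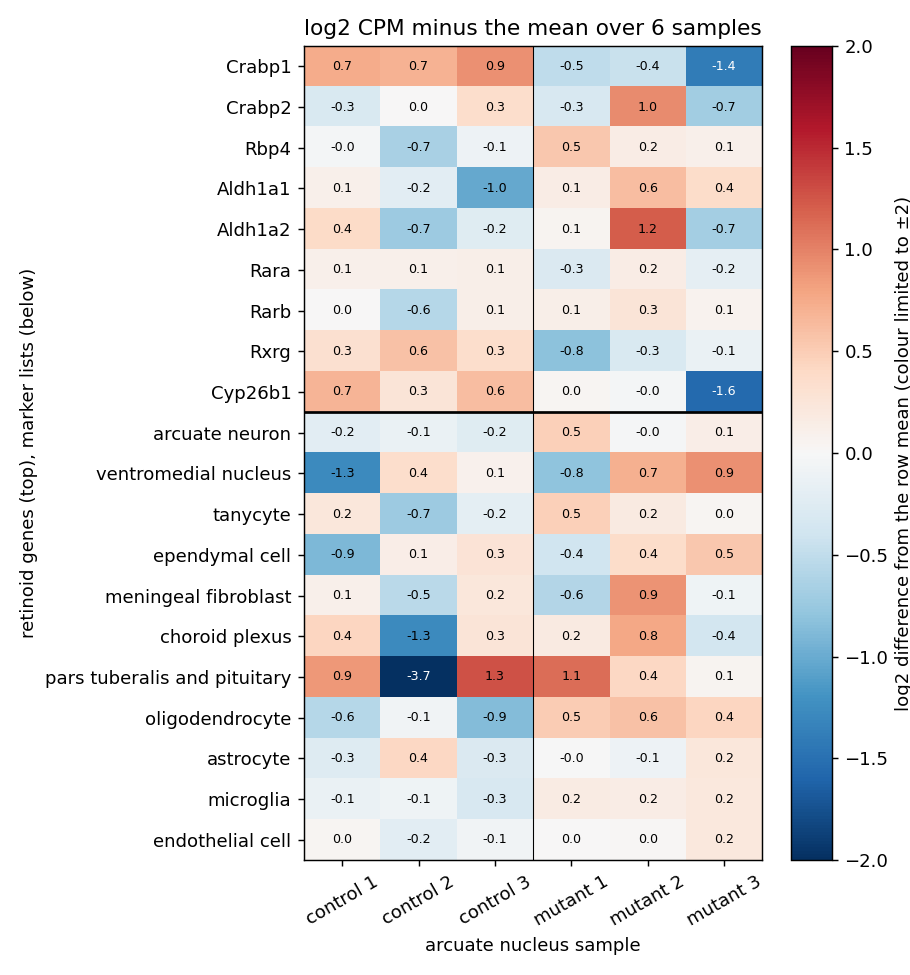
Log2 CPM of the 9 genes (top) and mean log2 CPM of the 11 marker lists (below) minus the mean over the 6 samples, with colors limited to ±2. *Aldh1a2* and *Crabp2* peak in mutant replicate 2 with the meningeal and choroid plexus lists, as do *Aldh1a1*, *Rara*, *Rarb* and the oligodendrocyte list. The pars tuberalis list drops in control replicate 2.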

How the data were processed

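Total RNA from microdissected ARC was amplified with a kit that the labels name and for which strand-specific counting is not stated in the sources used here. The authors mapped reads with TopHat2 2.1.0 and counted them per gene with HTSeq 0.6, and deposited 1 raw count per gene symbol and sample. The labels name mm9 and the paper NCBI37/mm10. Positions and exon lengths are those of GENCODE on NCBIM37, matched by symbol, and no exon of the 9 genes overlaps another annotated gene. CPM values were computed here.

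Mutants were compared with controls with R 4.3.3 and edgeR 4.0.16 (quasi-likelihood test, robust, TMM, default filter, 15236 genes), with Benjamini-Hochberg adjustment and a threshold of 0.05. The study used DESeq2, run here (1.42.0) as an alternative beside limma voom (3.58.1). The fit was first tested on simulated data. Chi-square per degree of freedom between samples was between 6.60 and 29.6, so none was a duplicate. The labels give a replicate number but no litter or day, and p-values cover the spread between these samples. Floors cover counting error only. Further alternatives were RLE normalization, other filters, plain CPM, a replicate block and each sample left out in turn. The 9 genes and all lists were chosen with earlier results of these data known. The genes named are the 9, the pathway genes with adjusted p under 0.05, or unadjusted p under 0.05 and no overlap, or the 2 highest levels per kb of a role, and the 5 nearest genes of each variable member. Some genes of the pathway list that enter the counts are not reported here by name or value.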

Additional observations from a re-analysis of the deposited data

How the results depend on the processing

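Of 204 log2 fold changes recomputed for the 9 members and 8 named pathway genes under 12 alternatives each, 196 kept their direction and their side of the threshold. For *Crabp1*, which has no test, a value counted as kept when it moved by less than the SD within genotypes on the log2 scale. Those that turned were *Crabp2*, at -0.0032 with limma voom, -0.0077 without control replicate 1 and -0.58 without mutant replicate 2, and *Aldh1a2*, at -0.15 without mutant replicate 2. Over the fits that left out 1 sample, *Crabp2* ran from -0.58 to 0.45 and *Aldh1a2* from -0.15 to 0.88. Those that passed were *Rxrg* with DESeq2 (-0.83, adjusted p = 0.0209) and with a minimum of 1 count in any sample (-0.83, adjusted p = 0.0339, edgeR), and *Lrat* with DESeq2 and without mutant replicate 1. Over all alternatives the adjusted p of *Rxrg* ran from 0.0209 to 0.494 and that of *Lrat* from 9.74e-05 to 0.728. The number of members other than *Crabp1* past the threshold was 0 in edgeR's test and 1 with DESeq2 and with the minimum of 1 count, and it was 0 in all fits that left out 1 sample. For the pathway list it was 0 and 1 with DESeq2, and 0 to 1 when a sample was left out. For all genes it was 18, and 191 with DESeq2, 106 with the minimum of 1 count and 7 to 46 when a sample was left out. The cause was not tested. Deviations from the genotype means correlated across genes by 0.28, 0.046 and -0.0061 between samples numbered 1, 2 and 3. Control replicate 2 correlated best with mutant replicate 3 (0.21). Whether samples of the same number belong together cannot be told from these values or from the labels. With the replicate block 123 genes passed, 0 of them members other than *Crabp1* or pathway genes. With plain CPM the control mean of *Rara* was 25.9 instead of 26.2, the single level to move by more than its SD. At these depths *Crabp2* and the pathway genes under 1 CPM rest on few reads.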
